A study of Jatropha curcas with 15 samples.

Results

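The subject here was a set of 60 probes, out of 41651 probes on a custom array of *Jatropha curcas* transcripts, whose signal was lower 3 h after a cytokinin spray than before it and higher 12 h after it. The set was defined on the deposited log2 table. For each probe the mean of the 3 arrays at 0 h was subtracted from the mean at 3 h and from the mean at 12 h. A probe entered when the difference was at most -0.7 at 3 h and at least 0.7 at 12 h, and when the scanner software scored it well above background on all 15 arrays. CUST_32452 also met these limits and was left out by definition. Of 32303 probes well above background on all 15 arrays, 768 passed the 3-h limit and 2032 passed the 12-h limit. The 60 members and CUST_32452 passed both, which was 0.189% of the 32303. The mirror-image limits, raised at 3 h and lowered at 12 h, were met by 252 probes, and 281 probes were lowered at both times.

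The arrays measured inflorescence buds of 1-year-old field-grown plants sprayed with 1 mM 6-benzylaminopurine (BA), a synthetic cytokinin. Sampling took place at the time of the spray (0 h) and again 3, 12, 24 and 48 h later, with 3 biological replicates of each time, and each replicate was hybridised alone in 1 colour. Every bud came from a plant that received BA, so time after the spray and time of day changed together, and no mock-sprayed bud was analysed here. By their spacing, the 24-h and 48-h samples fall at the clock time of the 0-h samples.

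Signals below are log2 processed signals after subtraction of the 75th percentile of each array, so a value of 0 is the 75th percentile of that array's probes. The percentile itself lay between 12.31 and 12.85 on the log2 scale, and each array had 79.0% to 84.0% of its probes well above background. No array had a saturated probe spot. Floral organ-identity probes were used to check the tissue. Of 8 such probes, 7 (AP1, AP3, AG, SEP1, SEP2, SEP3 and STK) were well above background on all 15 arrays and PI on 5. At 12 h 5 of 7 tested floral probes and 3 of 4 green-tissue probes were lower than at 0 h, at least 2-fold and past the adjusted threshold (limma), against 5.54% of all tested probes. Averaged over each list, the change from 0 h was -1.99 to -0.77 (log2, by array) for the floral list and -2.33 to -1.71 for the green-tissue list at 12 h, against -0.46 to -0.06 and 0.24 to 1.16 at 3 h. Single probes weighed on the green-tissue averages. The probe for GUN5 fell most at 12 h, from a mean of 1.35 at 0 h to -3.07. The PSBR probe CUST_37715 rose most at 3 h, from -7.16 to -5.71, and was well above background on 11 arrays only. The single seed probe, for oleosin 2, did not score well above background on the 0-h and 3-h arrays but did on all arrays of 12, 24 and 48 h. Set against the lowest signal scored well above background at 0 h, it was at least 7.71-fold higher at 12 h, 15.4-fold at 24 h and 6.16-fold at 48 h (adjusted p = 3.76e-05, 0.000493 and 0.00107), so its rise was not limited to the time at which the 60 probes were high. The part of these shifts in the values of the 60 probes was not tested, and in whole buds fewer cells of a type and less RNA per cell cannot be told apart.

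Cytokinins are perceived by membrane histidine kinases that pass phosphate to response regulators, and in inflorescences they sustain the dividing cells of the meristem from which floral primordia arise. Auxin often acts in the opposite sense on bud growth. Auxin-repressed proteins are small plant proteins whose transcripts fall when auxin is supplied, as described in strawberry fruit, and whose relatives are abundant in resting axillary buds of pea. Cinnamoyl-CoA reductase turns hydroxycinnamoyl-CoA esters into aldehydes, the entry to the monolignols of which lignin is made. Only 5 of the 60 members carry a protein description in the tables used here, and those descriptions are best matches to other plants.

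The array probes are 60-mers, and the sequences of 7 members could be read from the probe tables. The following are shown because an overlap tells which members report on the same stretch of a transcript. A lack of overlap does not show that probes lie on different transcripts. CUST_32452, which is not a member, is printed beside them, and the member CUST_10282 is not printed. Capitals mark the longest run that CUST_22906 shares with CUST_25239, and the remaining sequences are in lower case.
CUST_22906: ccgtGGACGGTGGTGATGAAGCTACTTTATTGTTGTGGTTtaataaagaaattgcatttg
CUST_25239: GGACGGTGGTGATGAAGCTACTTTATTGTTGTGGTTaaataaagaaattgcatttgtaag
CUST_25344: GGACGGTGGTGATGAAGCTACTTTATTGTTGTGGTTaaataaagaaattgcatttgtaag
CUST_32452: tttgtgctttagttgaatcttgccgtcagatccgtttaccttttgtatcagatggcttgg
CUST_781: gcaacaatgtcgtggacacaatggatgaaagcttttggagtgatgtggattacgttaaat
CUST_33751: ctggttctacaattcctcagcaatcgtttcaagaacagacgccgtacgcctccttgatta
CUST_10684: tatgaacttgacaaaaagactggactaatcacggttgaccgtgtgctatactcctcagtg
CUST_22906 is described as auxin-repressed 12.5 kDa protein, putative, by its match to castor bean. CUST_25239 and CUST_25344 are described only as a predicted protein of poplar, although both are the same 60-mer, designed on separate ESTs. That 60-mer overlaps CUST_22906 with a shift of 4 bases. The overlap covers 56 bases, of which 55 match, with T41A as the single substitution, counted from the 5′ end of CUST_22906, and the shared run is 36 bases long. These 3 members therefore lie on the same stretch of the same or a very similar transcript, and their signals are not independent measurements. CUST_32452, the probe left out by definition, carries the same castor-bean description as CUST_22906, but shares no run longer than 6 bases with any of the 7 members. CUST_781 is described as cinnamoyl-CoA reductase, putative, and CUST_33751 as the castor-bean hypothetical protein RCOM_1437660. CUST_10684, printed because its signal ran closely parallel to that of CUST_33751, shares no run longer than 7 bases with it. The GC content of the 7 members' probes was 35.0% to 46.7% with a median of 40.0%, against a median of 43.3% over 2901 probes with a sequence.

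**Figure D1:**
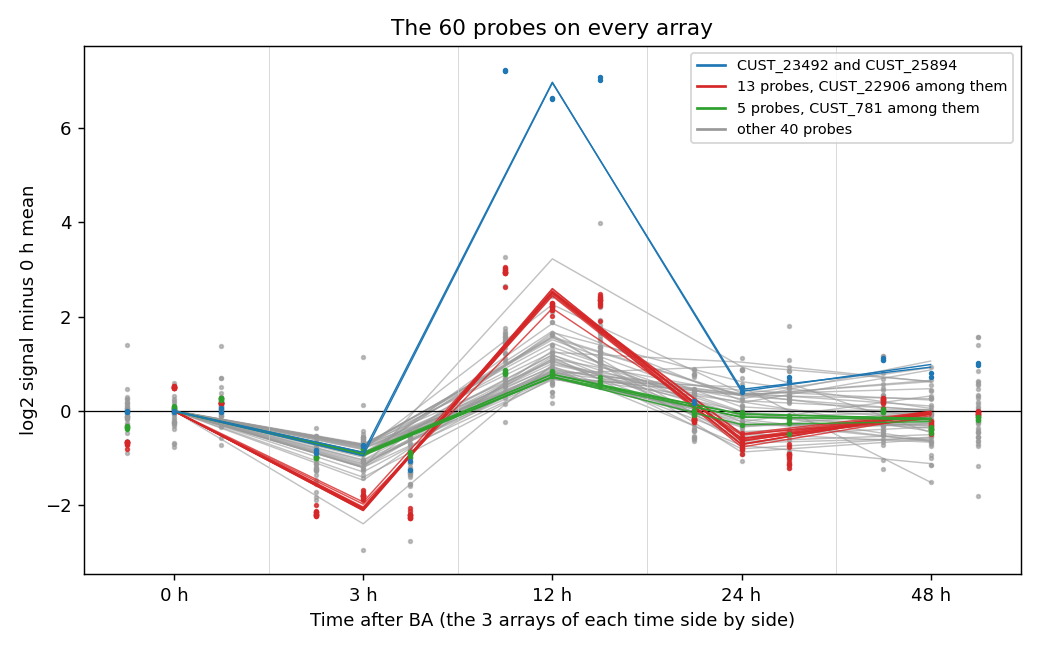
All 60 probes on all 15 arrays. The vertical axis is the log2 signal minus the probe's 0-h mean and the horizontal axis is the time after BA; points are arrays, lines join the means of 3 arrays, and colours pick out the sets named in the legend. The CUST_23492 pair reaches 6.96 and 6.97 at 12 h, the 13 probes with CUST_22906 lie near -2.07 at 3 h and 2.51 at 12 h, and most lines return near 0 at 24 h and 48 h.

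The values at 3 h and 12 h chose the members, so they are given as a description only. On the scaled signals the median change was -0.94 at 3 h (range -2.39 to -0.70) and 1.19 at 12 h (range 0.67 to 6.97), with a median SE of 0.28 for either change. In the table used for the selection, 12 members were at or below -2 at 3 h, 15 lay between -1 and -2, and 33 lay above -1. At 12 h 17 members were at or above 2, 20 lay between 1 and 2, and 23 lay below 1. Just inside the 12-h limit were CUST_34176 (0.713) and CUST_7730 (0.717), and just outside it CUST_1996 (0.696) and CUST_13529 (0.689). Just inside the 3-h limit were CUST_10684 (-0.708) and CUST_24399 (-0.713), and just outside it CUST_20641 (-0.699) and CUST_31905 (-0.693). The differences between these neighbours are far smaller than the spread between replicates.

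The 60 members were spotted once each and none had a spot removed. Their replicates were less alike than those of most probes: the SD within a time point, pooled over the 5 times for each probe, had a median of 0.37 for the members and 0.16 for all 34469 tested probes. Taken time by time, the spread was largest at 12 h, where the median SD of the members was 0.36 against 0.16 for all probes, and smallest at 48 h, where it was 0.21 against 0.12. The medians of the members on each array follow, of which those of 0, 3 and 12 h chose the members and are a description. Relative to the 0-h mean, the median of the 60 members was -1.12, -0.84 and -1.10 on the 3-h arrays, 1.44, 1.09 and 1.34 on the 12-h arrays, -0.06, -0.23 and -0.24 on the 24-h arrays, and 0.06, -0.29 and -0.08 on the 48-h arrays. The 0-h arrays themselves were at -0.14, 0.04 and 0.15.

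The arrays were hybridised on 4 slides. The 0-h arrays shared slide 1 with 3 h replicate 1. On slide 2 were 3 h replicates 2 and 3 with 12 h replicates 1 and 2, on slide 3 was 12 h replicate 3 with the 24-h arrays, and slide 4 carried the 48-h arrays. The differences within a slide each involve arrays that chose the members, on slide 3 only 12 h replicate 3, and are likewise a description. On slide 1, the median difference of the members between 3 h replicate 1 and the 0-h arrays was -1.12, against -0.06 for all tested probes. On slide 2 it was 2.12 between the 12-h and the 3-h arrays, against 0.06, and on slide 3 it was -1.46 between the 24-h arrays and 12 h replicate 3, against 0.00. No slide held 0-h arrays together with 24-h or 48-h arrays, so for the later times slide and time cannot be told apart within a slide.

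Many members had nearly the same profile over the 15 arrays. When members were joined if their centred profiles differed by no more than 0.2 log2 units (root mean square), 39 of the 60 fell into 11 sets and 21 stood alone, so the 60 probes gave 32 separate profiles. The limit was chosen after the values were seen. Members were selected for the same order at 3 h and 12 h, so part of their likeness was fixed by the selection. The same joining was not run on other probes. The largest set had 13 probes, and it held the 3 overlapping probes described above.

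The 13 probes were CUST_22906, CUST_24170, CUST_25239, CUST_25344, CUST_25444, CUST_25478, CUST_26199, CUST_26363, CUST_26506, CUST_26542, CUST_26828, CUST_32103 and CUST_37621. Signals of each time are given below for replicates 1, 2 and 3, with the time in parentheses after them. CUST_22906, the probe with the auxin-repressed protein description, had log2 signals of 1.91, 3.06, 2.75 (0 h), 0.46, 0.78, 0.37 (3 h), 5.50, 4.72, 4.80 (12 h), 2.33, 1.81, 1.45 (24 h), and 2.80, 2.32, 2.55 (48 h). All 3-h values lay below and all 12-h values above every other array. The identical probes CUST_25239 and CUST_25344 ran in parallel. CUST_25239 gave 1.57, 2.80, 2.44 (0 h), 0.07, 0.41, 0.01 (3 h), 5.25, 4.48, 4.62 (12 h), 2.09, 1.60, 1.35 (24 h), and 2.51, 1.93, 2.20 (48 h). CUST_25344 gave 1.49, 2.66, 2.40 (0 h), 0.03, 0.38, -0.02 (3 h), 5.18, 4.39, 4.54 (12 h), 1.94, 1.35, 1.11 (24 h), and 2.37, 1.94, 2.11 (48 h). The same 60-mer spotted at 2 places thus differed by at most 0.25 on any of the 15 arrays. No pair of profiles within the set differed by more than 0.221.

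Across the 13 probes the 3-h change lay between -2.11 and -1.93 and the 12-h change between 2.18 and 2.60. The 0-h arrays were unlike one another on these probes: relative to the probes' own means over all arrays, the median of the set was -0.63 on replicate 1, 0.56 on replicate 2 and 0.23 on replicate 3. At 24 h the 13 probes changed by -0.77 to -0.48 against 0 h on the log2 scale, with a median SE of 0.30, and none passed the test (limma, adjusted p between 0.123 and 0.322). At 48 h their changes from 0 h were -0.17 to -0.01, and none passed the test (adjusted p between 0.764 and 0.985). The 48-h arrays averaged 0.33 to 0.69 above the 24-h arrays, again with no probe past the threshold (adjusted p between 0.181 and 0.578). The 24-h values moved with single arrays, and that of CUST_22906 ranged from -1.04 to -0.46 when each was left out. Without 0 h replicate 1, CUST_22906 was lower at 24 h than at 0 h by -1.04 (adjusted p = 0.0409), CUST_25344 by -1.06 (0.034) and CUST_26363 by -1.10 (0.0451). CUST_26363 also passed without 24 h replicate 1 (-1.07, adjusted p = 0.0424).

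CUST_32452, the other probe with the auxin-repressed description, was likewise lowest at 3 h and highest at 12 h, with a wider range. Its log2 signals were -5.47, -4.06, -4.00 (0 h), -6.87, -6.40, -6.87 (3 h), 0.98, -1.04, 0.67 (12 h), -4.83, -5.14, -5.19 (24 h), and -3.73, -4.11, -3.97 (48 h). The change was -2.20 at 3 h and 4.72 at 12 h (SE 0.47). CUST_32452 met the same limits as the members, so its order at 3 h and 12 h is a description only. The lowest 0-h array was replicate 1 for 36 members, the 13 probes among them, and also for CUST_32452. This order was thus not particular to the 13 probes and CUST_32452. Its values at 24 h (-0.54 against 0 h, adjusted p = 0.451) and at 48 h (0.57, adjusted p = 0.433) did not pass the test, and neither did the difference of 1.11 between 48 h and 24 h (adjusted p = 0.16).

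The pair CUST_23492 and CUST_25894 had the largest 12-h changes of the 60. CUST_23492 gave -3.60, -3.60, -3.51 (0 h), -4.46, -4.28, -4.81 (3 h), 3.64, 3.07, 3.45 (12 h), -3.41, -3.07, -2.85 (24 h), and -2.48, -2.85, -2.59 (48 h). This was 124-fold above 0 h at 12 h, and the 12-h arrays lay at least 5.55 log2 units above every other array. CUST_25894 followed it closely, with -3.56, -3.55, -3.57 (0 h), -4.38, -4.31, -4.61 (3 h), 3.67, 3.05, 3.51 (12 h), -3.34, -3.16, -2.93 (24 h), and -2.43, -2.75, -2.54 (48 h). The profiles of the pair differed by 0.073. Neither probe has a description or a sequence in the tables used here, so whether they lie on 1 transcript was not analysed here.

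The pair was higher at the last time than before the spray. At 48 h CUST_23492 was 1.91-fold higher than at 0 h (0.93 ± 0.18, log2 and SE, adjusted p = 0.00851) and CUST_25894 1.98-fold higher (0.99 ± 0.15, adjusted p = 0.00318), and on both probes the 48-h arrays lay above all 0-h arrays. At 24 h the excess was smaller, at 0.47 ± 0.18 (adjusted p = 0.0993) and 0.42 ± 0.15 (adjusted p = 0.0859). The difference between 48 h and 24 h was 0.57 ± 0.15 for CUST_25894 (adjusted p = 0.0411) and 0.47 ± 0.18 for CUST_23492 (adjusted p = 0.129). The first was no longer past the threshold in 17 of 28 alternatives, among them the replicate block (adjusted p = 0.0533) and the removal of 48 h replicate 1 (0.126). The 48-h excess of both no longer passed the test with normexp background correction (0.26 and 0.37) or with scan day as a block (1.02 and 1.07).

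**Figure D2:**
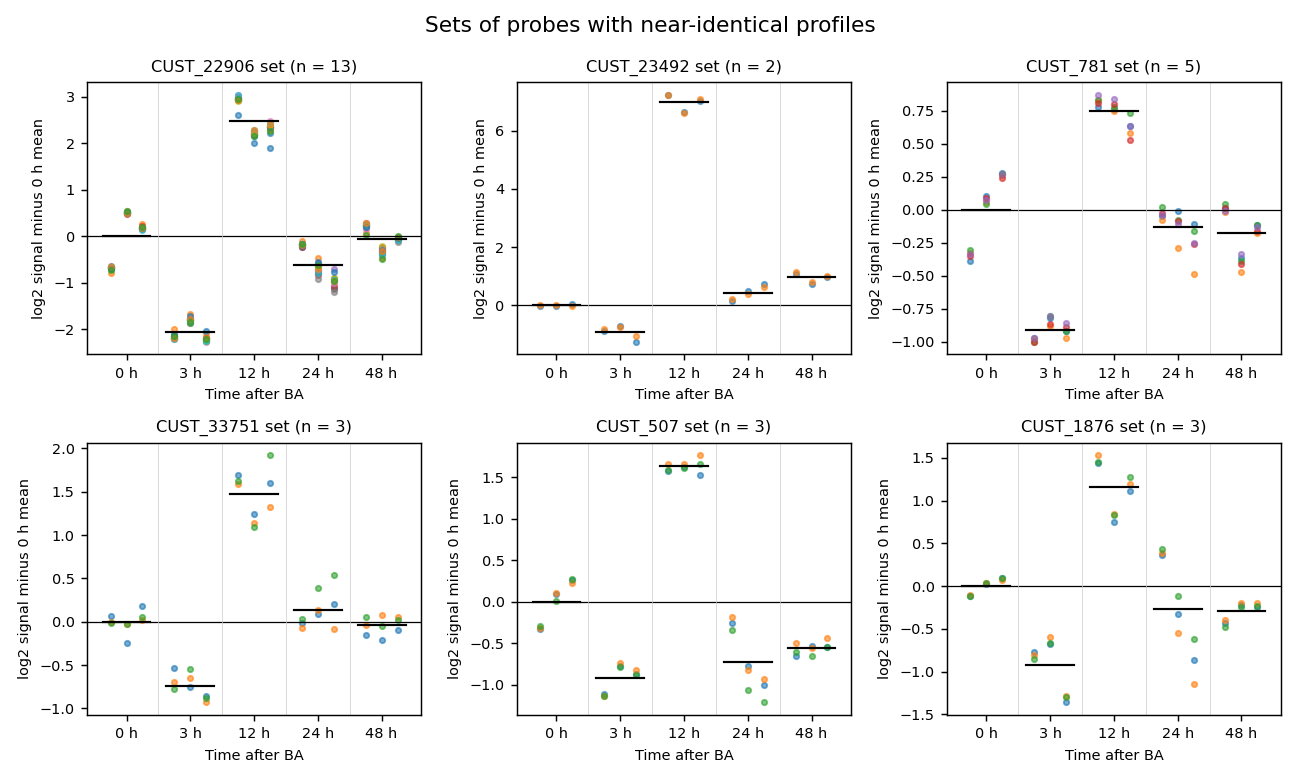
Sets of probes with nearly the same profile, one panel a set, named by one of its probes. The vertical axes, each with its own range, give the log2 signal minus the probe's 0-h mean and the horizontal axes the time after BA; each colour is a probe, the 3 arrays of a time stand side by side, and bars are means. Probes of a set overlie one another on nearly every array, and at 24 h and 48 h the CUST_507 set lies below 0 while the CUST_23492 set lies above it.

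CUST_781, the cinnamoyl-CoA reductase probe, belonged to a set of 5 with CUST_8157, CUST_13804, CUST_14699 and CUST_18127. CUST_781 gave -0.08, 0.36, 0.51 (0 h), -0.73, -0.60, -0.62 (3 h), 1.08, 1.07, 0.80 (12 h), 0.24, 0.18, 0.01 (24 h), and 0.28, -0.14, 0.11 (48 h). Its 3-h arrays lay below and its 12-h arrays above all others. The 5 probes changed by -0.94 to -0.88 at 3 h and 0.72 to 0.78 at 12 h, close to the 12-h limit, and no pair of profiles differed by more than 0.112. Their changes were -0.28 to -0.06 at 24 h (adjusted p between 0.239 and 0.825) and -0.22 to -0.16 at 48 h (adjusted p between 0.371 and 0.497), so none passed the test, and -0.10 to 0.06 between 48 h and 24 h.

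CUST_33751, the castor-bean hypothetical protein match, formed a set with CUST_10684 and CUST_6930. CUST_33751 gave -1.68, -1.71, -1.66 (0 h), -2.38, -2.33, -2.61 (3 h), -0.09, -0.54, -0.35 (12 h), -1.75, -1.55, -1.76 (24 h), and -1.72, -1.60, -1.62 (48 h). Apart from 3 h and 12 h these values lay within 0.21 of one another. CUST_10684 gave 0.82, 0.51, 0.93 (0 h), 0.22, 0.00, -0.11 (3 h), 2.44, 1.99, 2.35 (12 h), 0.73, 0.84, 0.95 (24 h), and 0.60, 0.54, 0.65 (48 h). The changes of the set were 0.00 to 0.32 at 24 h and -0.16 to 0.04 at 48 h, and none passed the test (adjusted p 0.242 or more).

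The set of CUST_507, CUST_5128 and CUST_7137 lay below its 0-h signal at 24 h. CUST_7137 gave -1.05, -0.75, -0.49 (0 h), -1.89, -1.54, -1.64 (3 h), 0.82, 0.85, 0.90 (12 h), -1.10, -1.82, -1.97 (24 h), and -1.36, -1.41, -1.30 (48 h). All 3 probes were lower at 24 h than at 0 h: CUST_7137 by -0.87 ± 0.19 (adjusted p = 0.014), CUST_507 by -0.68 ± 0.18 (0.0254) and CUST_5128 by -0.65 ± 0.18 (0.0353). At 48 h CUST_507 was lower by -0.58 ± 0.18 (adjusted p = 0.0495), and the other two gave -0.59 and -0.50 (adjusted p = 0.0603 and 0.0873). At 24 h replicate 1 lay apart from replicates 2 and 3 on all 3 probes, by 0.50 or more. These calls were narrow: without 24 h replicate 3 the adjusted p at 24 h was 0.0641 for CUST_7137, 0.11 for CUST_507 and 0.147 for CUST_5128, and with no scaling it was 0.0551, 0.099 and 0.149. The 48-h call of CUST_507 was lost under most alternatives. None of the 3 has a description or sequence in the tables used here.

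The later times show how far these probes lay from their starting signal. The median SE of the members' changes was 0.28, against 0.13 for all tested probes, so a change of a given size was harder to detect in them. The selection did not use the 24-h and 48-h arrays, although it did use the 0-h arrays with which they were compared. At 24 h the median change of the 60 was -0.13 (range -0.87 to 1.03), against 0.01 for all tested probes, and 59 of 60 lay within 2-fold of 0 h, or 98.3%, against 95.7% of all tested probes. A probe was called when it changed at least 2-fold with an adjusted p not above 0.05. At 24 h 1 member (1.67%) was called, and it was higher, compared with 3.18% of all tested probes called in either direction and 2.18% called higher. By the adjusted p alone 6 members were past the threshold, or 10% of the set against 14.5% of all probes. Of these, 2 were higher (7.3% of all probes) and 4 lower (7.25%). The 24-h and 0-h arrays did not overlap for 14 members, or 23.3% of the set, against 36.5% of probes overall.

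At 48 h the median change was -0.09 (range -1.51 to 1.06), against 0.02 for all probes. Within 2-fold of 0 h lay 57 of 60, or 95%, against 96.5% of all tested probes. Called members numbered 2 (3.33%), both lower, against 2.7% of all probes in either direction and 0.818% lower. By the adjusted p alone 8 passed, or 13.3% against 13.8%, with 3 higher (7.46% of all probes) and 5 lower (6.34%). The arrays did not overlap for 25 members, or 41.7%, against 38.3% overall. Between 48 h and 24 h, for which the selection used no array, 2 members were called (3.33%, against 2.14% of all probes and 1.39% lower), both lower at 48 h, and 3 passed the adjusted p alone (5%, against 8.09%). The median change was 0.09 against 0.01 for all probes, and the arrays did not overlap for 12 members, or 20%, against 31% overall. The shares of members called in either direction were near those of the array as a whole, where 1 member more or less moves a share by 1.67 percentage points. Because the SE of the members was larger, the shares past the adjusted p and of non-overlapping arrays do not show that they changed less often. With each of the 32 separate profiles counted once, the median was 0.02 at 24 h and -0.10 at 48 h.

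**Figure D3:**
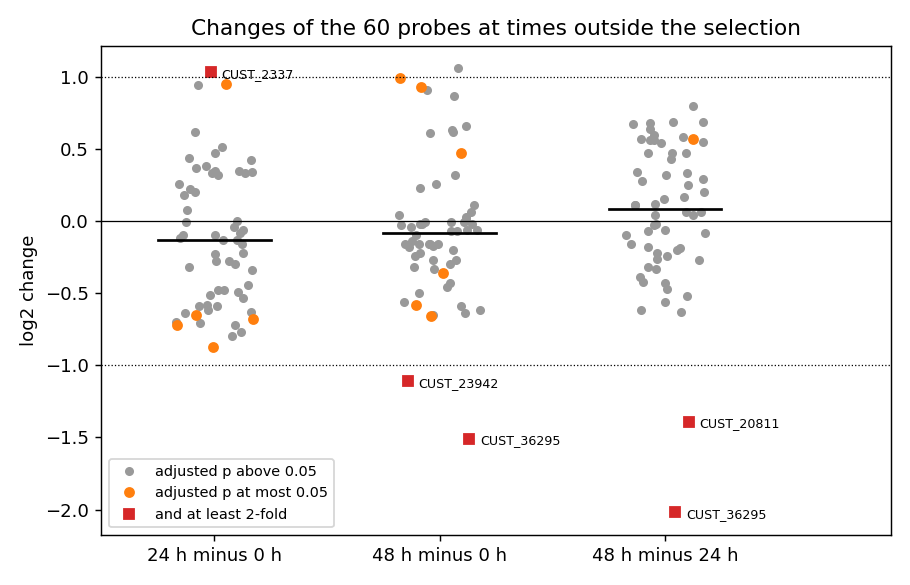
Changes of the 60 probes between times outside the selected differences. The vertical axis is the log2 change, the 3 columns are 24 h minus 0 h, 48 h minus 0 h and 48 h minus 24 h, each point is a probe, black bars are medians and dotted lines mark 2-fold. Squares are the called probes, CUST_2337, CUST_23942, CUST_36295 and CUST_20811, and most other points lie between the dotted lines.

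The members called at the later times stood alone in their profiles. CUST_36295 gave -4.68, -4.62, -5.52 (0 h), -6.19, -6.16, -6.05 (3 h), -3.74, -4.76, -4.33 (12 h), -4.94, -4.08, -4.27 (24 h), and -6.17, -6.44, -6.74 (48 h). Its 48-h arrays lay below every array of 0, 12 and 24 h. It was 4.06-fold lower at 48 h than at 24 h (-2.02 ± 0.30, adjusted p = 0.00268) and 2.85-fold lower than at 0 h (-1.51 ± 0.30, adjusted p = 0.00928). At 24 h it was not shown to differ from 0 h (0.51 ± 0.30, adjusted p = 0.258). The call against 24 h was lost with normexp background correction (-1.83, adjusted p = 0.13), and that against 0 h with normexp (-1.88, adjusted p = 0.051) and with scan day as a block (-1.60, adjusted p = 0.185).

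CUST_20811 had the largest 12-h difference after CUST_23492 and CUST_25894, at 3.20 in the table used for selection. It gave -6.87, -5.40, -5.70 (0 h), -7.17, -7.22, -7.18 (3 h), -2.72, -3.56, -2.01 (12 h), -5.12, -5.13, -4.90 (24 h), and -6.27, -6.68, -6.39 (48 h). At 48 h it was 2.63-fold lower than at 24 h (-1.39 ± 0.37, adjusted p = 0.0389), and the 3 arrays of each time did not overlap. Neither time passed the test against 0 h, where replicate 1 lay 1.17 below the nearest other array. The call between 48 h and 24 h was lost in 13 of 28 alternatives, among them the removal of any 1 of the 24-h or 48-h arrays (adjusted p between 0.0671 and 0.116).

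CUST_23942 gave 1.14, 1.11, 1.16 (0 h), -0.14, 0.12, 0.04 (3 h), 1.92, 1.96, 2.29 (12 h), 0.60, 0.63, 0.01 (24 h), and 0.11, -0.01, -0.02 (48 h). The 48-h signal was 2.16-fold below 0 h (-1.11 ± 0.15, adjusted p = 0.00153), close to the 3-h values, and the 24-h signal was 1.65-fold below it (-0.72 ± 0.15, adjusted p = 0.0112). The 48-h value lay just outside the threshold with scan day as a block (-1.33, adjusted p = 0.0508). The 24-h value was past it no more with no scaling (-0.54, adjusted p = 0.081), normexp (-0.65, 0.0655), slide as a fixed block (-1.29, 0.13) or scan day as a block (-0.95, 0.106). CUST_3541 also fell at 48 h, by 0.66 on the log2 scale (SE 0.16, adjusted p = 0.0198), as did CUST_4232, by 0.36 (SE 0.11, adjusted p = 0.0443). The first passed no more in 7 of 28 alternatives, which were no scaling (-0.36, adjusted p = 0.162), normexp (-1.08, 0.0775), scan day as a block (-1.14, 0.0571) and the removal of 0 h replicate 1 or 2 or of 48 h replicate 1 or 3 (adjusted p between 0.0548 and 0.0667). The second passed no more in 18 of 28, among them no scaling (-0.06) and the removal of any 1 of the 0-h or 48-h arrays (adjusted p between 0.0609 and 0.12).

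CUST_2337 was the member called at 24 h. It gave -3.05, -2.65, -3.01 (0 h), -3.69, -3.47, -3.66 (3 h), -2.33, -1.51, -1.16 (12 h), -2.19, -2.33, -1.10 (24 h), and -2.34, -2.25, -2.28 (48 h). At 24 h it was 2.04-fold above 0 h (1.03 ± 0.31, adjusted p = 0.0438), and 24 h replicate 3 lay 1.09 above the other two. Without that array the change was 0.64 (adjusted p = 0.161), and the call was lost in 18 of 29 alternatives in all. CUST_13598 rose at 24 h by a similar amount, with -3.73, -3.51, -3.78 (24 h) and -4.53, -4.63, -4.72 (0 h) (0.95 ± 0.25, adjusted p = 0.0259), and it was past the threshold no more in 8 of 29 alternatives, among them normexp (0.28) and the removal of any 1 of the 0-h arrays (adjusted p 0.0516 to 0.0813). It gave -4.30, -3.69, -4.01 (48 h) (0.63 ± 0.25, adjusted p = 0.11). CUST_27422 was 1.39-fold higher at 48 h than at 0 h (0.47 ± 0.12, adjusted p = 0.0281), but without 0 h replicate 1 the adjusted p was 0.0888, and with normexp correction the change was -0.09.

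**Figure D4:**
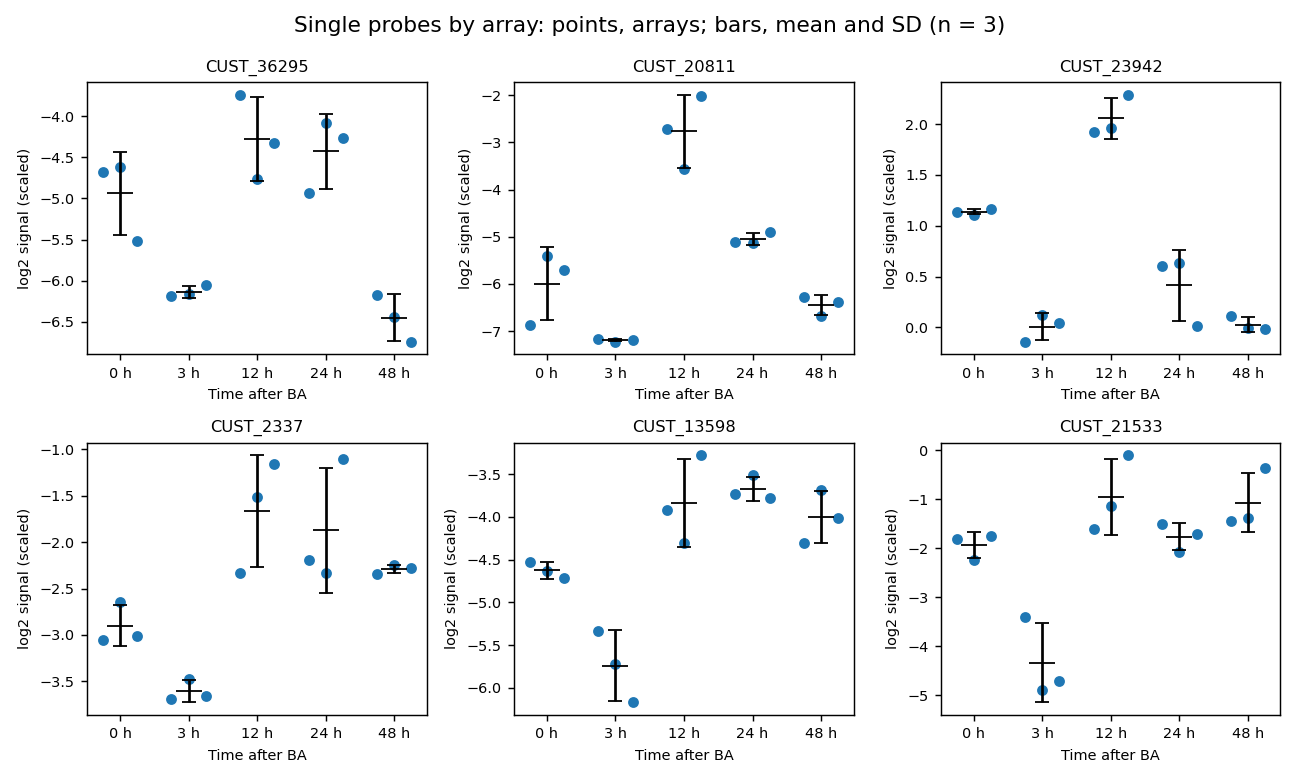
Probes with profiles of their own, on every array. The vertical axes, each with its own range, give the scaled log2 signal and the horizontal axes the time after BA; points are arrays and bars the mean with its SD (n = 3). The 48-h points of CUST_36295 lie below its 24-h points, with a difference of -2.02 on average, and the 24-h points of CUST_2337 include one array at -1.10.

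The greatest fall at 3 h among the 60 was that of CUST_21533, which gave -3.40, -4.89, -4.70 (3 h) and -1.81, -2.25, -1.76 (0 h). Its 12-h values were -1.61, -1.15 and -0.11, and its 48-h values, -1.45, -1.39 and -0.37, reached about the same range. The 12-h mean was the highest of the 5 times for 57 of the 60 members and the 3-h mean the lowest for 59. These counts rest on the 3-h and 12-h values that chose the members and are a description.

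The members were also looked for among the genes of the known hormone and flowering pathways. None of the probes in the lists used here, each probe counted once, for abscisic acid (24), auxin (27), brassinosteroids (12), cytokinin (27), ethylene (10), gibberellin (9), jasmonic acid (12), salicylic acid (6) or flowering (32) was a member. Over the array the limits were met by 0.189% of the 32303 probes well above background on all 15 arrays. With lists of this size, finding no member is near that share and does not set the members apart. Of all tested probes 1.69% were called higher and 0.896% lower at 3 h, and 3.5% higher and 5.54% lower at 12 h. The cytokinin list had 1 probe called higher and 1 lower at 3 h and 3 lower at 12 h, out of 27 tested. The auxin list had 1 higher and 2 lower at 12 h out of 27, the abscisic acid list 6 lower at 12 h out of 23, and the flowering list 1 higher and 7 lower at 12 h out of 29. At 3 h the abscisic acid list had 1 higher and the flowering list 1 in each direction. The other 5 lists had 0 to 2 probes called in each direction at each of these times. Among them, at 12 h the ethylene list had 1 higher and 2 lower out of 10, and the jasmonic acid list 2 higher and 1 lower out of 12. Past less strict limits of -0.4 and 0.4, 3 listed probes showed the same order: CUST_2462 (-0.46 at 3 h and 1.03 at 12 h), CUST_9844 (-0.44 and 0.47) and CUST_17122 (-0.52 and 1.24). The share of all probes past these limits was not counted, so the 3 are given as a description only. The paper names CUST_17122 as CUC1 and reports it as induced between 12 h and 48 h, so it stayed raised where most members did not.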

How the data were processed

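Total RNA from 15 bud samples (5 times, 3 biological replicates each) was labelled with Cy3 and hybridised to a custom Agilent array. Per the file headers, the deposited intensity values are processed signals of Agilent Feature Extraction 10.7.3.1, background-subtracted and detrended but not scaled between arrays. The authors' deposited log2 table came from GeneSpring GX; its scaling is not stated, but 99.98% of its values lay within 0.1 of quantile-normalised log2 processed signals. It served to choose the members and as an alternative for the later times.

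Here, control spots and any spot that the scanner software marked as an outlier were removed, spots of a probe were averaged, and log2 signals were reduced by each array's 75th percentile over probes. A model with 5 times over all 15 arrays was fitted with limma 3.58.1 in R 4.3.3 to the 34469 probes that exceeded background (scanner flag) on the 3 arrays of 1 or more times, and p-values were Benjamini-Hochberg adjusted over all of them. A called probe had an adjusted p of at most 0.05 and at least a 2-fold change. In simulated data of 34304 probes, changes of 2 log2 units were planted, opposite in sign at 24 h and 48 h. The same model recovered 95.5% (24 h), 96.5% (48 h) and 100% (48 h against 24 h) of the changed probes. The planted difference between 48 h and 24 h was larger than either change. The changed probes were drawn at random from all tested probes, most of which varied less between replicates than the members. No slide or scan-day effect was planted. Recovery of smaller changes, as most later changes of the members were, or in probes as variable as the members, was not tested. The number of arrays limits the precision. Scans were made on 2 days, 6 days apart, the 0-h arrays and 3 h replicate 1 being on the earlier.

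Named members are those with a description, the 8 with the largest difference between 12 h and 3 h, those called at the later times, and the neighbours of the limits; members past the adjusted p alone, CUST_21533 and the example probes of sets were named after their values were seen. Members and lists were chosen with earlier results of these data known. Names and probe sequences came from the study's supplementary tables, which were held in part; the members' other sequences were not used here. Alternatives were other scalings and background corrections, filters, blocks, and the removal of each array.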

Additional observations from a re-analysis of the deposited data

Results flagged for a closer look

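Among the probes described, 3 changed differently between the later times, judged by the test of 48 h against 24 h over all probes. CUST_36295 was lower at 48 h than at 24 h (-2.02, adjusted p = 0.00268), with all 3 48-h arrays below all 3 24-h arrays. CUST_20811 was lower at 48 h (-1.39, adjusted p = 0.0389), again without overlap. CUST_25894 was higher at 48 h (0.57, adjusted p = 0.0411), with all 48-h arrays above all 24-h arrays. The value of CUST_20811 was past the threshold no more in 13 of 28 alternatives, that of CUST_25894 in 17 of 28 and that of CUST_36295 in 1 of 28 (normexp). The 48-h arrays all lay on slide 4 and the 24-h arrays on slide 3, so slide and time cannot be told apart in these values. With 3 arrays a time, no array was tested as an outlier.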

How the results depend on the processing

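The samples were not treated as paired by replicate number. Over 30 pairs of same-numbered arrays the deviations correlated between -0.27 and 0.38 (median 0.06). For 60 pairs of differently numbered arrays the correlations lay between -0.34 and 0.42 (median 0.01). With a replicate block, called members numbered 1 at 24 h, 3 at 48 h and 2 between 48 h and 24 h, and the medians stayed at -0.13 and -0.09. The single call at 24 h became 2 without scaling, and 0 with normexp correction, without the filter, with slide as a fixed or random block, with scan day as a block, without moderation, and with only the 6 arrays compared. With single arrays left out it ranged between 0 and 6, the 6 (5 of them lower) without 0 h replicate 1 and 3 without 24 h replicate 1. The 2 calls at 48 h became 6 without scaling (5 higher, 1 lower), 1 with normexp and 0 with scan day as a block, and 2 to 5 with single arrays left out, the 5 (3 higher) without 48 h replicate 2. The 2 calls between 48 h and 24 h became 1 without scaling, without the filter, with slide as a random block and without moderation, 0 with normexp, and 1 to 2 with single arrays left out. The median at 24 h was 0.05 without scaling (where all probes shifted by 0.19), -0.27 with normexp, -0.33 with slide as a fixed block, -0.33 with scan day as a block, 0.02 with 1 value per profile, and -0.24 to -0.06 with single arrays left out. At 48 h it was 0.21 without scaling (all probes 0.32), -0.29 with normexp and -0.35 to 0.02 with single arrays left out, the lowest without 0 h replicate 1. The set itself had 103 members at a limit of 0.6, 36 at 0.8 and 19 at 1, and 51 to 79 with single arrays left out (47 to 59 of the 60 still in it). With normexp it had 69 members, of which 39 were among the 60, and without scaling 69, of which 47 were. Of the single probes, CUST_36295 at 24 h (-0.05), CUST_13598 at 48 h (-0.24) and CUST_27422 at 48 h (-0.09) reversed with normexp, and CUST_20811 at 24 h with slide as a fixed block (-0.16). Only the value of CUST_27422 had passed the adjusted p. In 1335 repeats of single-probe results, 1156 kept direction and side of the threshold, 152 lost the threshold, 23 gained it and 4 reversed. Only results that had passed could lose the threshold, and most of the single-probe results had not passed. The 152 losses are therefore not to be read as a share of the 1335. The causes were not tested. Slide as a fixed block gave no value at 48 h, because slide 4 held only 48-h arrays. The per-profile alternative was chosen after seeing the data.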
